A study of Homo sapiens with 12 samples.

Results

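Cisplatin reaches its target in the nucleus only as far as a cell lets it in, carries it about and fails to pump it out. The genes described here are 10 copper and drug transporters known for handling Cisplatin, taken by symbol from the 26334 genes counted in RNA sequencing of A549, a cell line of human lung adenocarcinoma. The symbols were SLC31A1, SLC31A2, ATOX1, ATP7A, ATP7B, ABCC1, ABCC2, ABCC3, ABCC4 and ABCG2. The rule took symbols and no measured value, though earlier results of these data were known when the genes were chosen. All 10 passed the filter on low counts, which left 15352 genes for testing. The 12 libraries formed 4 groups of 3 biological replicates. Every culture had been infected with a lentivirus and selected with puromycin at 1 ug/ml for 4 days, so that the controls carried a vector too. shControl cells expressed a control shRNA and shRNF113A cells an shRNA against RNF113A, a RING-domain ubiquitin ligase that is also a subunit of the spliceosome. Each kind of cell was left untreated or given Cisplatin, labelled 25 ug/ml, for 20 hours in complete medium. The published text of the study gives its Cisplatin concentrations in uM, so the dose is uncertain. The infected cells were selected as populations of 1 cell line, and which shRNA sequence was used in these libraries is not given in the sources used here.

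Copper enters human cells mostly through SLC31A1 (CTR1), a trimeric importer of the plasma membrane, while its relative SLC31A2 (CTR2) sits largely on internal membranes and is known to limit the uptake of platinum. ATOX1 is the small cytosolic chaperone that hands copper to ATP7A and ATP7B, the P-type ATPases that load copper into the secretory pathway and expel its excess. Platinum binds the same metal sites. The ABC transporters act on other chemistry: ABCC1, ABCC2, ABCC3 and ABCC4 (MRP1 to MRP4) export glutathione, glucuronate or sulphate conjugates and other organic anions, and ABCC2 is the family member best known for exporting the conjugate of glutathione and platinum. ABCG2 (BCRP) exports many anticancer drugs. A549 cells carry a KEAP1 mutation that keeps the transcription factor NRF2 active, and several of these ABC genes are NRF2 targets.

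Some sequences are shown first because results given further on refer to them. ABCC3 held the only splicing event of the 10 genes that passed every limit, a retained intron of 149 nt at hg19 chr17:48755305-48755453 on the plus strand, with a GC content of 61.1%. It is printed 5′ to 3′ with the first and last pair of bases, the GT and AG that the spliceosome recognises, in capitals, and is followed by its donor and acceptor with their neighbouring bases.
ABCC3 retained intron: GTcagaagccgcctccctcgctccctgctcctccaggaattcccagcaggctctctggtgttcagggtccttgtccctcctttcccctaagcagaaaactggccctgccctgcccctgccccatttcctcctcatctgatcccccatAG
ABCC3 donor, hg19 chr17:48755302-48755310: ccgGTcaga
ABCC3 acceptor, hg19 chr17:48755434-48755454: cctcatctgatcccccatAGg
Another intron of ABCC3 had a higher share of reads for alternative sites, at both of its ends, in treated shRNF113A than in treated shControl cells. The stretch at its start holds the usual donor and a later one, and the stretch at its end holds an earlier acceptor and the usual one, again in capitals.
ABCC3 paired donors, hg19 chr17:48735858-48735909: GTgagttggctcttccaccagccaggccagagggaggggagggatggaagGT
ABCC3 paired acceptors, hg19 chr17:48736541-48736597: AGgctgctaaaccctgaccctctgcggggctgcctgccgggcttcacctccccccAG

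Promoters were searched because 8 of the 10 genes moved in the same direction under Cisplatin. RefSeq promoter windows of 300 bases on GRCh38.p14, from 250 bases before to 50 after a start, were matched for 7 of the genes as 13 windows, several of them overlapping, and none was matched for SLC31A2, ABCC1 or ABCC3. Of the 13 windows, 3 held TGACNNNGC on either strand, the core of the antioxidant response element that NRF2 binds, against 13.3% of all 35116 promoter windows. The core of the metal response element, TGCACNC or TGCGCNC on either strand, which the metal sensor MTF1 binds, was found in 7 of the 13 windows and in 29.6% of all. ATOX1, which rose, and ABCC4, which fell furthest, had both motifs, as did 1 of the ABCG2 windows, and the windows of the former pair are printed with the matches in capitals. In the ATOX1 window 2 overlapping metal-element matches share 1 run of capitals.
ATOX1 promoter, GRCh38.p14 chr5:151758582-151758881, minus strand: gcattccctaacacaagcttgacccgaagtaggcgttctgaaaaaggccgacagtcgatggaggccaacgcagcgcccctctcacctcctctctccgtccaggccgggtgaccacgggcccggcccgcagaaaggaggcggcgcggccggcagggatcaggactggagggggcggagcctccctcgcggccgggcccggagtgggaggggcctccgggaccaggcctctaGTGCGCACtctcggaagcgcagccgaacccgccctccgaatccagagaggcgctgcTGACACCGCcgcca
ABCC4 promoter, GRCh38.p14 chr13:95301402-95301701, minus strand: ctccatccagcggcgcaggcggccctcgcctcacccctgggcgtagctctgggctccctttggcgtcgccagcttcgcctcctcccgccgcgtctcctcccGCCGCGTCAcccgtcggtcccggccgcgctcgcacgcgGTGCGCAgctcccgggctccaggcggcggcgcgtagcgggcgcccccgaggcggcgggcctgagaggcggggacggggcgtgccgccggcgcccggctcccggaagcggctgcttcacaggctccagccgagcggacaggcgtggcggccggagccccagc
A match is a match of letters only, and binding was not measured.

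The libraries held 33859097 to 56071514 read pairs, of which 14.0 to 22.6% were counted for no gene, the highest shares (21.8 to 22.6%) being those of the shRNF113A Cisplatin group, which was also the shallowest at 33859097 to 39414380 read pairs. RNF113A, the targeted gene, averaged 725 ± 17.1 normalized counts (counts divided by a size factor of the library, SD, n = 3) in shControl untreated cells and 579.9 ± 28.8 in shRNF113A untreated cells, a fall by 0.31 on the log2 scale (adjusted p = 0.0247). Under Cisplatin it averaged 1062 ± 74.4 and 939 ± 100.4, and this difference did not pass the test (adjusted p = 0.233). Over all libraries the log2 change of RNF113A with depletion was -0.23 (adjusted p = 0.0185 by the edgeR test described below). Its interaction with Cisplatin was not called (log2 0.17, adjusted p = 0.479 by the same test). Of 6 epithelial markers KRT7, KRT8 and KRT18 had at least 1113 CPM (counts scaled to a common library size) in every library, while KRT19 had 0.674 to 5.32 and EPCAM 3.66 to 97.6. The summed list ran from 8522 to 15000.4 in shControl untreated and from 14481 to 15916 in shRNF113A untreated cells, and was lower under Cisplatin, at 4615 to 6597 and 6520.2 to 6843. The 4 genes high in A549, ALDH1A1, AKR1B10, AKR1C1 and NQO1, summed to 13523 to 15944 and 10351 to 11851 without and 8304 to 9843 and 5262 to 5804 with Cisplatin, in the same order of cells. Of 4 leukocyte markers, PTPRC and CD3E stayed at or under 0.127 CPM and CD14 had 1.14 to 4.36, while CD68, also a protein of lysosomes, ran from 27.9 to 74.0 and brought the summed list from 30.6 to 41.4 in shControl untreated cells to 58.0 to 76.7 in shRNF113A Cisplatin cells. Fibroblast markers summed to 6.06 to 36.3, with COL1A1 at 3.32 to 34.9 and LUM at 0.166 to 2.71, and endothelial markers to at most 0.788. The part of these markers in the results was not tested.

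**Figure D1:**
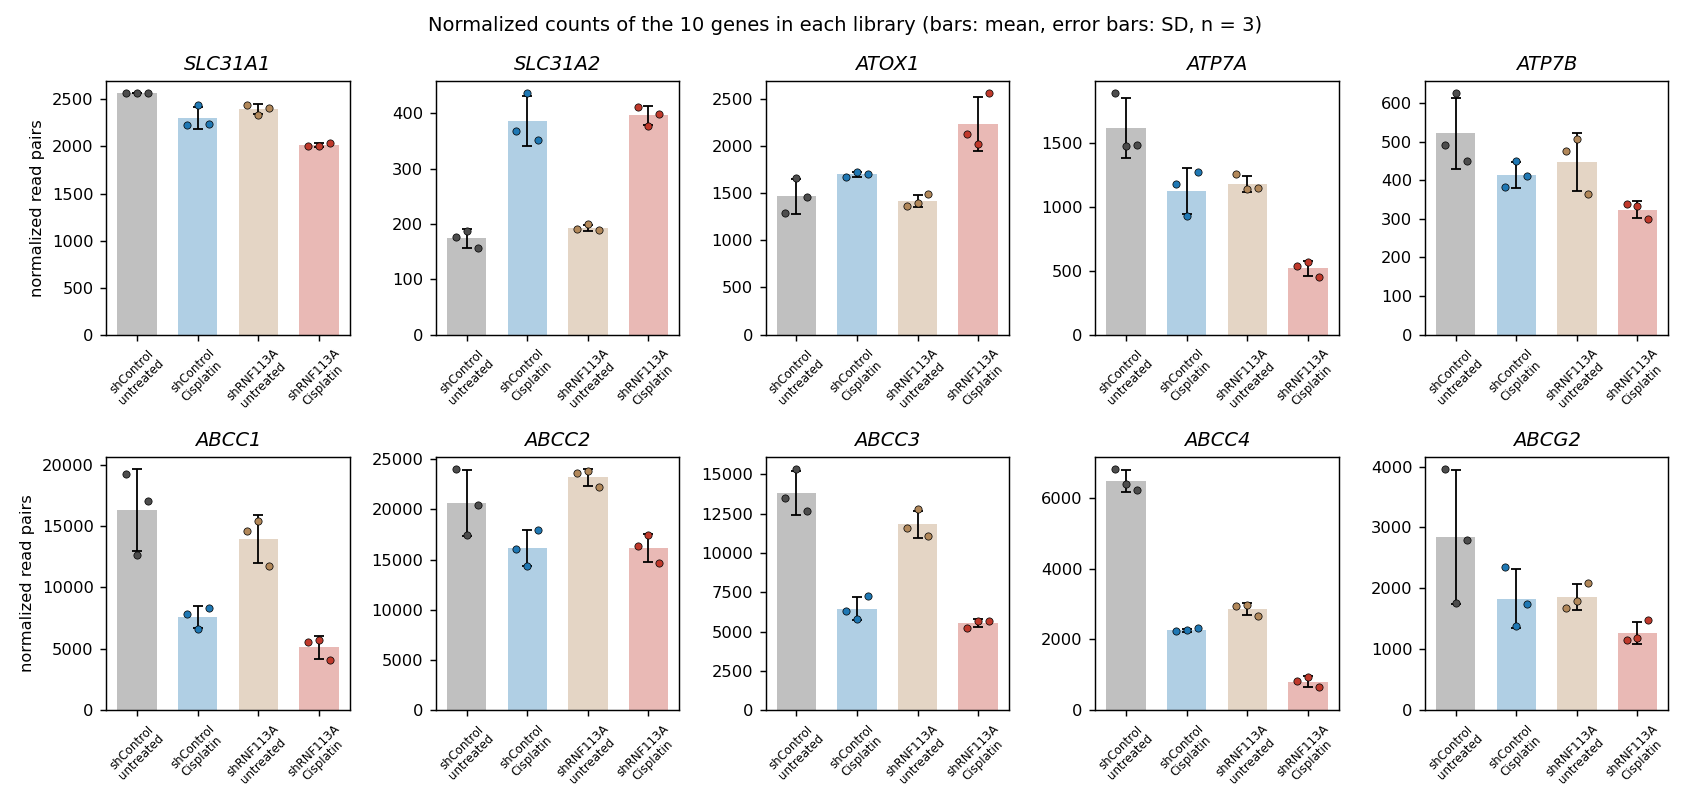
Normalized counts of the 10 genes in each of the 12 libraries, by group, with points for libraries, bars for the group mean from 0 and error bars for the SD (n = 3). The 3 shRNF113A Cisplatin libraries of ABCC4 sit between 662 and 952, under every other library, and those of SLC31A2 in both Cisplatin groups lie at 353 to 437, above all untreated ones.

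As FPKM, the exonic read pairs of a gene scaled by its merged exon length and by the exonic total of the library, the 10 genes spanned a wide range of levels in shControl untreated cells. ABCC2 led with an FPKM of 81.8 ± 9.64 (SD, n = 3), followed by ABCC1 at 65.0 ± 10.7, ABCC3 at 54.7 ± 8.43 and ABCC4 at 28.8 ± 1.46. The copper genes lay lower, with SLC31A1 at 14.3 ± 0.644, ATOX1 at 7.73 ± 1.29, ATP7A at 4.96 ± 0.571, SLC31A2 at 2.60 ± 0.322 and ATP7B at 2.05 ± 0.467. ABCG2 had 15.3 ± 5.38. The merged length takes in every annotated exon, used or not, and was 5125 nt for ATOX1. A gene that uses only part of its annotated exons therefore gets a lower FPKM. How far this moved ATOX1 or others in the order was not tested. The libraries overlapped between ABCC2 and ABCC1, ABCC1 and ABCC3, ABCG2 and SLC31A1, and SLC31A2 and ATP7B, so the order within each of these pairs is not resolved. In the shRNF113A Cisplatin group ABCC2 was still first, at an FPKM of 74.8, but ABCC4 had dropped to 4.13, under ATOX1 (13.5), SLC31A1 (12.8), ABCG2 (7.86) and SLC31A2 (6.61). ATP7A and ATP7B closed the order there with FPKM of 1.81 and 1.41.

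The first question was what Cisplatin did to these genes over both kinds of cell. By the quasi-likelihood F test of edgeR, adjusted after Benjamini and Hochberg over all 15352 genes, which gave every adjusted p of expression here unless another tool is named, all 10 were called, against 66.8% of all genes tested. SLC31A2 and ATOX1 were higher, where 34.8% of all genes were called higher, and the other 8 were lower, where 32.1% were. Counting only changes of at least 2-fold left SLC31A2 up and ABCC1, ABCC3 and ABCC4 down, 4 of 10 against 21.5% of all genes. The median log2 fold change of the 10 was -0.48, beside 0.03 over all genes tested. In bulk RNA from a culture, fewer cells and less RNA per cell cannot be told apart.

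The 2 SLC31 genes, neighbours on chromosome 9, moved in opposite directions. SLC31A2 (hg19 chr9:115913222-115926417) had 177, 188 and 156 normalized counts in the shControl untreated libraries and 369, 437 and 353 in the Cisplatin ones. In shRNF113A cells it had 191, 199 and 189 without and 412, 378 and 399.9 with the drug. All 6 treated libraries lay above all 6 untreated ones. The log2 fold change was 1.12 (SE 0.088, adjusted p = 1.02e-07), a 2.18-fold rise.

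SLC31A1 (hg19 chr9:115983808-116028674), the importer, had 2566, 2567 and 2565 normalized counts in shControl untreated cells and 2229, 2442 and 2238 after Cisplatin. In shRNF113A cells the counts were 2438, 2333 and 2414 without and 2002, 2001 and 2039 with the drug. The treated and untreated groups did not overlap within either kind of cell, yet the change was the smallest of the 10, a fall by 0.17 on the log2 scale (SE 0.046, adjusted p = 0.00462). This call was lost when libraries were scaled by their size only (adjusted p = 0.201).

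ATOX1 (hg19 chr5:151121877-151152093), the chaperone, had 1287, 1662 and 1458 normalized counts in shControl untreated cells and 1673, 1721 and 1707 in treated ones. In shRNF113A cells it had 1362, 1399 and 1489 without and 2129, 2019 and 2564 with Cisplatin. The treated shRNF113A libraries stood above the other 9. Over all libraries ATOX1 rose by 0.46 on the log2 scale (SE 0.10, adjusted p = 0.000997), or 1.38-fold.

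Both copper ATPases fell. ATP7A (hg19 chrX:77166194-77305892), the pump mutated in Menkes disease, had 1891, 1479 and 1485 normalized counts in shControl untreated cells and 1179.6, 926 and 1269 after Cisplatin. In shRNF113A cells it went from 1255, 1138 and 1151 to 539.6, 567 and 451. The groups did not overlap in either kind of cell, and the fold change of 1.76-fold lower had a log2 value of -0.82 (SE 0.13, adjusted p = 7.67e-05). ATP7B (hg19 chr13:52506809-52585630), the pump mutated in Wilson disease, was the scarcest of the 10 by FPKM. It had 490.4, 626 and 451 normalized counts in shControl untreated cells, 383, 449 and 410.1 in shControl Cisplatin cells, 475, 507 and 363 in shRNF113A untreated cells and 339, 333 and 299 in shRNF113A Cisplatin cells. Its fall by 0.37 on the log2 scale (SE 0.11, adjusted p = 0.00725) was smaller than that of ATP7A, a difference between genes that was not tested, and it missed the limit with scaling by library size only (adjusted p = 0.0525).

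Among the ABC transporters ABCC4 fell furthest. ABCC4 (hg19 chr13:95672083-95953687), an exporter of cyclic nucleotides and organic anions, had 6819, 6394 and 6213 normalized counts in shControl untreated cells and 2227, 2256 and 2313 after Cisplatin. In shRNF113A cells it fell from 2934, 2975 and 2658 to 816, 952 and 662. The ranges of the 4 groups did not overlap. The log2 fold change of Cisplatin was -1.63 (SE 0.085, adjusted p = 2.34e-09), or 3.10-fold lower.

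ABCC1 (hg19 chr16:16043434-16236931), the founding MRP and an exporter of glutathione conjugates, had 19215, 12640.0 and 17062 normalized counts in shControl untreated cells and 7833, 6584 and 8301 in shControl Cisplatin cells. In shRNF113A cells the counts were 14598, 15421 and 11707 without and 5571, 5729 and 4078 with the drug. Treated and untreated libraries did not overlap, and the fall was 2.37-fold (log2 -1.24, SE 0.13, adjusted p = 1.17e-06). ABCC3 (hg19 chr17:48712138-48769613), an exporter of glucuronides, had 13489.5, 15358 and 12645 normalized counts in shControl untreated cells and 6297, 5819 and 7298 after treatment. In shRNF113A cells it had 11585, 12778 and 11093 without and 5252, 5647 and 5697 with Cisplatin, again with no overlap. It fell 2.09-fold (log2 -1.07, SE 0.072, adjusted p = 2.49e-08), and its log2 changes were -1.08 in shControl and -1.05 in shRNF113A cells.

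ABCC2 (hg19 chr10:101542489-101611949), the exporter of the platinum conjugate, lost less. It had 23967, 17394 and 20437 normalized counts in shControl untreated cells and 16076, 14405 and 17989 in shControl Cisplatin cells, which overlapped. In shRNF113A cells the counts of 23572, 23773 and 22238 fell to 16356, 17429 and 14702 without overlap. The log2 fold change over all libraries was -0.41 (SE 0.083, adjusted p = 0.000703), and ABCC2 kept the highest mean FPKM of the 10 in every group. ABCG2 (hg19 chr4:89011416-89152474) was the least even. Its 3963, 1768 and 2787 normalized counts in shControl untreated cells had a coefficient of variation of 38.7%. It had 2351, 1391 and 1751 in shControl Cisplatin cells, 1686, 1790.2 and 2091 in shRNF113A untreated cells and 1153, 1181 and 1484 in shRNF113A Cisplatin cells, and its fall by 0.56 on the log2 scale (SE 0.17, adjusted p = 0.0104) passed the limit.

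**Figure D2:**
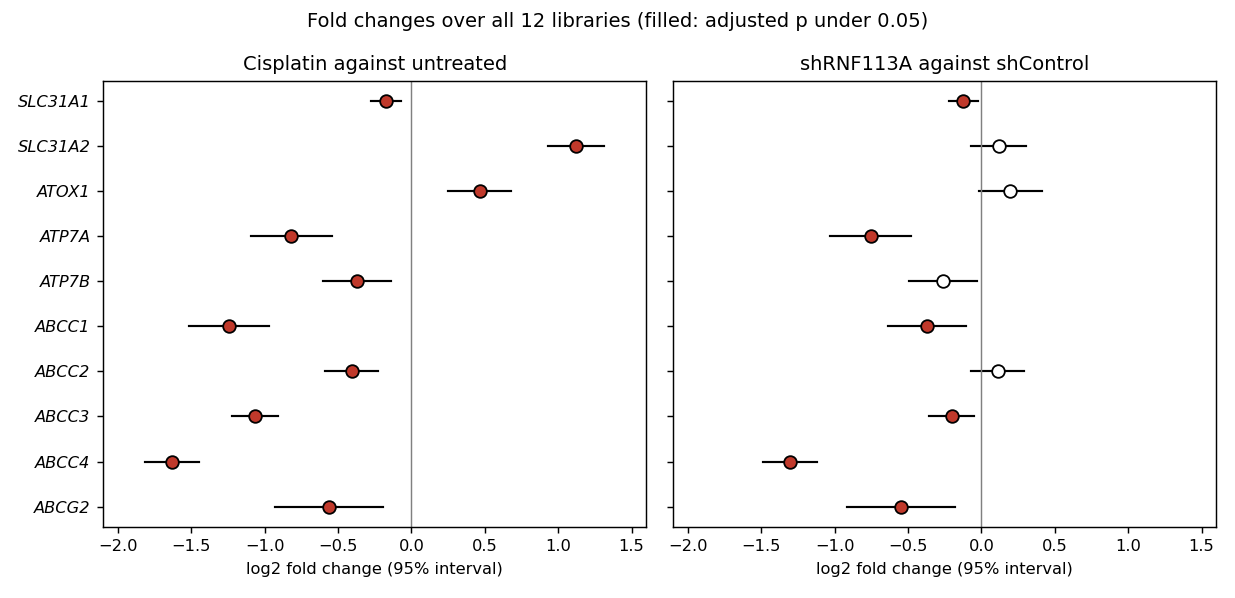
Log2 fold changes with 95% confidence intervals of the 10 genes over all 12 libraries, for Cisplatin against untreated and for shRNF113A against shControl, with filled points at an adjusted p under 0.05. ABCC4 lies furthest to the left in both, at -1.63 for Cisplatin and -1.30 for depletion, and SLC31A2 furthest to the right for Cisplatin at 1.12.

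Within shControl cells alone Cisplatin changed 6 of the 10 genes, against 55.0% of all genes tested. SLC31A2 rose (log2 1.17) and ATP7A (-0.51), ABCC1 (-1.09), ABCC2 (-0.33), ABCC3 (-1.08) and ABCC4 (-1.50) fell. The others had log2 changes of -0.14 for SLC31A1 (adjusted p = 0.0659), 0.23 for ATOX1 (0.0916), -0.32 for ATP7B (0.0881) and -0.62 for ABCG2 (0.0525). The labels give replicate numbers but name no pairs, and a pairing of the shControl libraries was inferred from these data. With the number as a block in a fit of these 6 libraries, 9 of the 10 genes were called. ATOX1 (log2 0.23, adjusted p = 0.0442), ATP7B (-0.31, 0.0385) and ABCG2 (-0.58, 0.000197) were those gained. A fit of the same libraries without the block called 5 of the 10. The share of all genes called in either of these fits was not computed. ABCG2 fell in each of the 3 same-numbered pairs. The call of ABCC2 was lost without any 1 of shControl untreated replicates 1 and 3 and shControl Cisplatin replicates 1 and 2 (adjusted p of 0.0561 to 0.134), and with scaling by library size only (0.0828), while ABCG2 was called without shControl untreated replicate 2 (0.00251) or shControl Cisplatin replicate 1 (0.0215). For 8 of the 10 genes the 3 treated libraries did not overlap the 3 untreated ones, where 56.0% of all genes tested did not.

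Within shRNF113A cells Cisplatin changed 9 of the 10 genes, against 60.2% of all genes tested, and the treated and untreated libraries of all 10 were apart, where those of 74.1% of all genes were. ATOX1 rose by 0.70 on the log2 scale (adjusted p = 0.00012) and SLC31A2 by 1.08. ATP7A fell by 1.14, ABCC1 by 1.40 and ABCC4 by 1.77, the last 3.42-fold lower. ABCG2 had a log2 change of -0.50 that did not pass (adjusted p = 0.104). ATP7B (log2 -0.43, adjusted p = 0.0283) lost its call without shRNF113A untreated replicate 1 or 2 or shRNF113A Cisplatin replicate 3, with adjusted p of 0.0860 to 0.115. Scaling by library size only left 7 called genes, as SLC31A1 (adjusted p = 0.173) and ATP7B (0.109) missed the limit.

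The other factor of the design was the depletion of RNF113A. Over all libraries it lowered 6 of the 10 genes and raised none by the test, where 47.5% of all genes tested were called, 24.0% lower and 23.5% higher. ABCC4 and ATP7A had the largest changes. ABCC4 was 2.47-fold lower in shRNF113A cells (log2 -1.30, SE 0.085, adjusted p = 1.90e-07), the sole change past 2-fold, where 11.0% of all genes had one. ATP7A was 1.69-fold lower (log2 -0.75, SE 0.13, adjusted p = 0.000426). Their counts, given above, were lower in every shRNF113A library than in every shControl library of the same treatment.

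The other 4 genes called were ABCG2 (log2 -0.54, adjusted p = 0.0185), ABCC1 (-0.37, 0.0248), ABCC3 (-0.20, 0.0313) and SLC31A1 (-0.12, 0.0439). Of these, ABCC3 (adjusted p = 0.0576) and SLC31A1 (0.104) missed the limit with scaling by library size only. ATP7B had a log2 change of -0.26 (adjusted p = 0.0585), ATOX1 of 0.20 (0.119), SLC31A2 of 0.12 (0.280) and ABCC2 of 0.11 (0.292), none past the test. The median over the 10 genes was -0.23, beside -0.0018 over all genes tested. Leaving out shRNF113A untreated replicate 3 brought the count of called genes to 3. SLC31A1 also missed the limit without any 1 of 7 other libraries (highest adjusted p = 0.0783), ABCC1 without shControl untreated replicate 1 (0.0576) or shRNF113A Cisplatin replicate 3 (0.0554), and ABCC3 without shControl untreated replicate 2 (0.0554) or shRNF113A untreated replicate 1 (0.0617).

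In untreated cells depletion changed ABCC4 (log2 -1.17, adjusted p = 1.36e-05, 2.25-fold lower) and ATP7A (log2 -0.44, adjusted p = 0.0281), 2 of 10 against 27.4% of all genes tested. The call of ATP7A was lost without shControl untreated replicate 1 and without each of the 3 shRNF113A untreated libraries, which left 1 gene. In Cisplatin-treated cells 4 of the 10 were called, against 42.9% of all genes. ABCC4 was 2.72-fold lower in shRNF113A cells (log2 -1.44, adjusted p = 3.34e-06), ATP7A 2.11-fold lower (log2 -1.08, adjusted p = 0.000124) and ABCC1 lower by 0.52 on the log2 scale (adjusted p = 0.0261), while ATOX1 was higher by 0.43 (adjusted p = 0.00655). The call of ABCC1 was lost without replicate 3 of shControl Cisplatin (adjusted p = 0.0576) or of shRNF113A Cisplatin (0.115). The libraries of 4 genes were apart in untreated cells and of 7 in treated cells, where 43.1% and 57.6% of all genes were.

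Whether depletion and Cisplatin acted differently together was tested as an interaction. None of the 10 genes was called by edgeR, where 4.25% of all genes tested were, and 2 had an unadjusted p under 0.05. These were ATP7A, whose fall under Cisplatin was larger in shRNF113A cells by 0.63 on the log2 scale (log2 interaction -0.63, SE 0.19, adjusted p = 0.0822), and ATOX1, whose rise was larger there (0.48, SE 0.15, adjusted p = 0.0949). DESeq2 called ATP7A (-0.66, adjusted p = 0.0253), and edgeR did so without shControl Cisplatin replicate 2 (-0.80, adjusted p = 0.0200). For ABCC4 the interaction was -0.27 (95% confidence interval -0.60 to 0.055, adjusted p = 0.323), and for ABCC3 it was 0.03 (-0.28 to 0.34, adjusted p = 0.936). With both factors present ABCC4 averaged 810.0 ± 145 normalized counts (SD, n = 3), against 6476 ± 311 with neither.

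The genes differed in size, and the order of their changes followed it closely. SLC31A2 spans 13.2 kb of the genome and ATOX1 30.2 kb, and these were the 2 genes that rose under Cisplatin. SLC31A1 (44.9 kb), ABCC3 (57.5 kb), ABCC2 (69.5 kb) and ATP7B (78.8 kb) lie in the middle, and ATP7A (140 kb), ABCG2 (141 kb), ABCC1 (193 kb) and ABCC4 (282 kb) are the longest. Spearman's rho between span and log2 fold change across the 10 genes was -0.85 for Cisplatin and -0.90 for depletion. Across the 13434 genes tested that had a span, 87.5% of all, it was -0.42 and -0.29. These are correlations across genes of the same 12 libraries, and genes are not replicates.

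Genes of all kinds followed the same gradient. Under Cisplatin the median log2 fold change was 0.23 for 2212 genes of 10 to 20 kb, the bin of SLC31A2, 0.14 for 2673 genes of 20 to 40 kb, the bin of ATOX1, and -1.18 for 1432 genes of 160 kb or more, the bin of ABCC1 and ABCC4. Of these longest genes 87.1% had a value below 0, and their quartiles were -2.19 and -0.45. ABCC1 at -1.24 was near the median of its bin and ABCC4 at -1.63 between its quartiles. SLC31A2 at 1.12 stood above the upper quartile of its bin, 0.67. ABCC3 at -1.07 and ABCC2 at -0.41 were below the lower quartile of the genes of 40 to 80 kb, -0.39. ATP7A at -0.82 was below that of the genes of 80 to 160 kb, -0.73. For depletion the median of the longest bin was -0.27 with a lower quartile of -0.63, so ABCC4 at -1.30 lay outside its quartiles. ATP7A at -0.75 and ABCG2 at -0.54 did so among genes of 80 to 160 kb, whose lower quartile was -0.39.

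**Figure D3:**
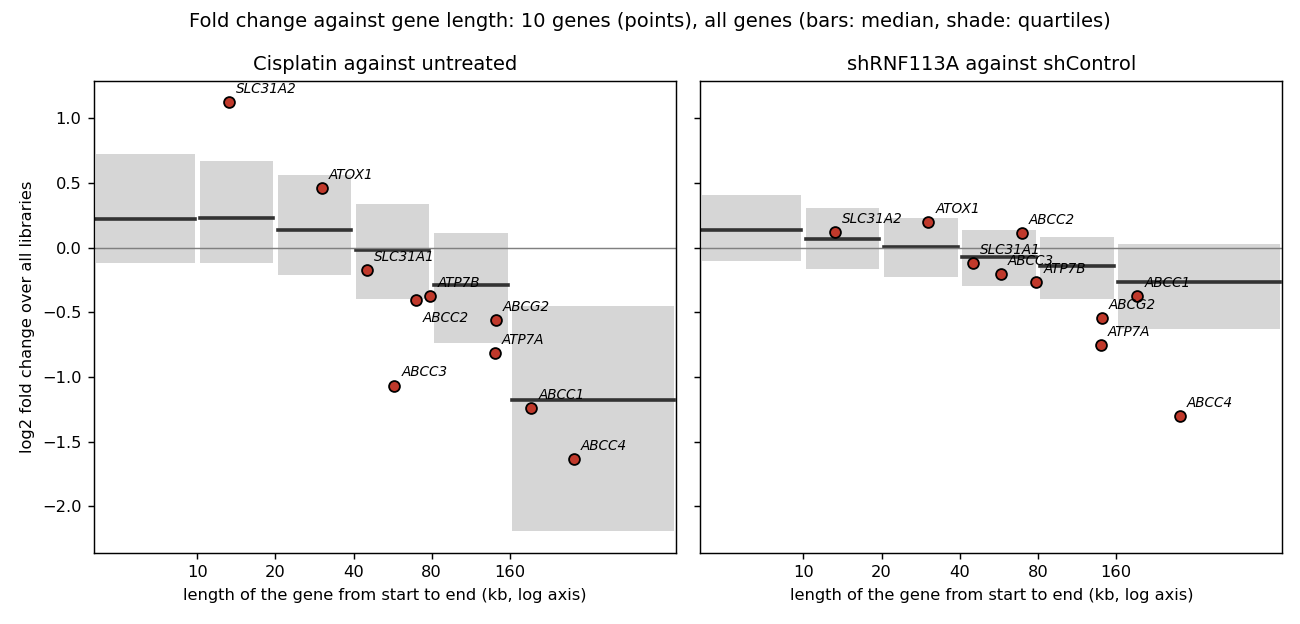
Log2 fold change against genomic span in kb (log axis) for Cisplatin and for depletion over all libraries, with the 10 genes as labelled points and the median and quartiles of all genes with a span in 6 bins. The bin medians under Cisplatin run from 0.22 in genes under 10 kb to -1.18 in genes of 160 kb or more, and ABCC4 lies at -1.63.

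Other genes of copper handling were called in both directions. Of 22 listed, 21 were tested. Cisplatin raised 6 and lowered 9 of them, beside 34.8% and 32.1% of all genes, with a median log2 fold change of -0.11. Past 2-fold 0 were higher and 5 lower, beside 10.3% and 11.2% of all genes. Depletion raised 3 and lowered 6, beside 23.5% and 24.0% of all genes, with a median of -0.08. The largest rises under Cisplatin were those of CCS (0.86), the copper chaperone of superoxide dismutase, and COX19 (0.82), a factor in the assembly of cytochrome c oxidase. The largest falls were those of CP (-2.34), the copper ferroxidase ceruloplasmin, and LOXL2 (-2.22), a copper-dependent amine oxidase that crosslinks collagen. Under depletion STEAP4 (1.57, adjusted p = 0.0309), a metalloreductase, and SCO2 (0.54) rose, and LOX (-1.88, adjusted p = 0.0233) and CP (-0.64) fell.

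Of 20 further carriers and channels linked to drug or platinum transport 17 were tested, and Cisplatin raised 4 and lowered 7, with a median of -0.20, where 34.8% and 32.1% of all genes were called. ABCC11 (1.47) and LRRC8E (1.26), a subunit of volume-regulated anion channels, had the largest rises, and SLC22A3 (-2.02), the organic cation transporter OCT3, and ABCC6 (-1.54) the largest falls. Depletion raised 2, ABCC10 (0.57) and LRRC8A (0.52), the obligate subunit of those anion channels, and lowered 6, most of all ABCC6 (-1.68) and ANXA4 (-1.54), with a median of 0.01, where 23.5% and 24.0% of all genes were called. Glutathione is the conjugation partner of platinum, and of 8 genes of its supply Cisplatin raised 3 and lowered 4, against the same 34.8% and 32.1%. GSS (0.96), glutathione synthetase, and GGT1 (0.61) rose, while GCLC (-0.87), the catalytic subunit of the rate-limiting ligase, and SLC7A11 (-0.67), the cystine importer, fell. Depletion raised GPX4 (0.32) and lowered 4 of the 8, GGT1 (-0.98) and GCLC (-0.56) most, against the same 23.5% and 24.0%. The pattern of SLC31A1 over the 12 libraries was most like those of EBF1, PDGFD and IFT74, with Pearson's r of 0.976, 0.975 and 0.974 on log2 CPM among 15351 genes. These libraries fall into only 4 conditions.

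The study asked what the loss of a spliceosome subunit does to splicing, so the reads inside introns were set against those in exons of the same gene. Over all protein-coding genes together the intronic share of genic reads ran from 4.36 to 4.83% in shControl untreated libraries, 4.67 to 7.19% in shControl Cisplatin, 5.77 to 6.65% in shRNF113A untreated and 9.99 to 10.4% in shRNF113A Cisplatin libraries. Replicate 3 was the highest and replicate 2 the lowest of the shControl Cisplatin libraries, and the same order held for 9 of the 10 genes there.

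The intronic share of ABCC1 was 2.55, 1.94 and 2.96% in the shControl untreated libraries, 3.95, 2.89 and 4.99% after Cisplatin, 3.05, 2.89 and 3.15% in shRNF113A untreated cells and 7.60, 9.12 and 9.63% in shRNF113A Cisplatin cells. For ABCC3 the shares were 15.7, 10.6 and 16.3%, then 16.6, 10.1 and 20.8%, 20.9, 21.6 and 20.6%, and 28.3, 28.6 and 27.6% in the same order of groups. In both genes the 3 shRNF113A Cisplatin libraries stood above the other 9. ATP7A rose from 4.40, 3.77 and 4.39% in shControl untreated to 8.03, 7.78 and 11.7% in shRNF113A Cisplatin libraries, ATP7B from 5.80, 4.06 and 6.83% to 11.4, 15.0 and 12.9%, and ABCG2 from 1.75, 1.61 and 2.54% to 5.66, 5.71 and 6.31%. ABCC4 went from 4.89, 4.19 and 5.61% to 10.7, 8.15 and 9.72%. The ranges of these end groups did not overlap in any of the 6 genes. Nor did they for all genes summed, at 4.36 to 4.83% against 9.99 to 10.4%. The share of all genes whose ranges were apart was not computed.

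The end groups were apart in 3 of the other 4 genes as well, as they were for all genes summed. SLC31A1 had 1.80, 1.65 and 1.83% in shControl untreated and 3.06, 2.99 and 2.29% in shRNF113A Cisplatin libraries. SLC31A2 had 1.69, 2.42 and 3.01% and 4.28, 7.55 and 10.4%, on 3 to 35 intronic reads in a library. ATOX1 had 11.7, 11.5 and 13.5% and 16.9, 17.0 and 15.8%. Whether the intronic counts used strand is not given in the sources used here. All of the 10 genes but ABCC3 overlap an annotated gene on the opposite strand. The study counted only reads that fell without ambiguity to a single protein-coding gene. Reads of an overlapping gene outside that annotation cannot be told apart from those of the gene itself. The overlapping genes are G3BP1 and ATOX1-AS1 for ATOX1, CDC26 for SLC31A1, FKBP15 for SLC31A2 and PGAM4 for ATP7A, which also overlaps PGK1 on its own strand, and small RNAs, pseudogenes or unnamed genes for the others. ABCC2, whose end groups lay the other way, had 12.1, 11.4 and 12.2% in shControl untreated libraries and less after Cisplatin, 7.30, 6.49 and 9.35%, but 9.83, 11.0 and 10.3% and 10.1, 11.2 and 10.9% in the shRNF113A groups. The gene count exceeded the exonic count of ABCC2 by 66.4 to 93.2% of its intronic reads, as group means. The gene counts and the exonic counts rest on different annotations, whose part in this was not tested.

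**Figure D4:**
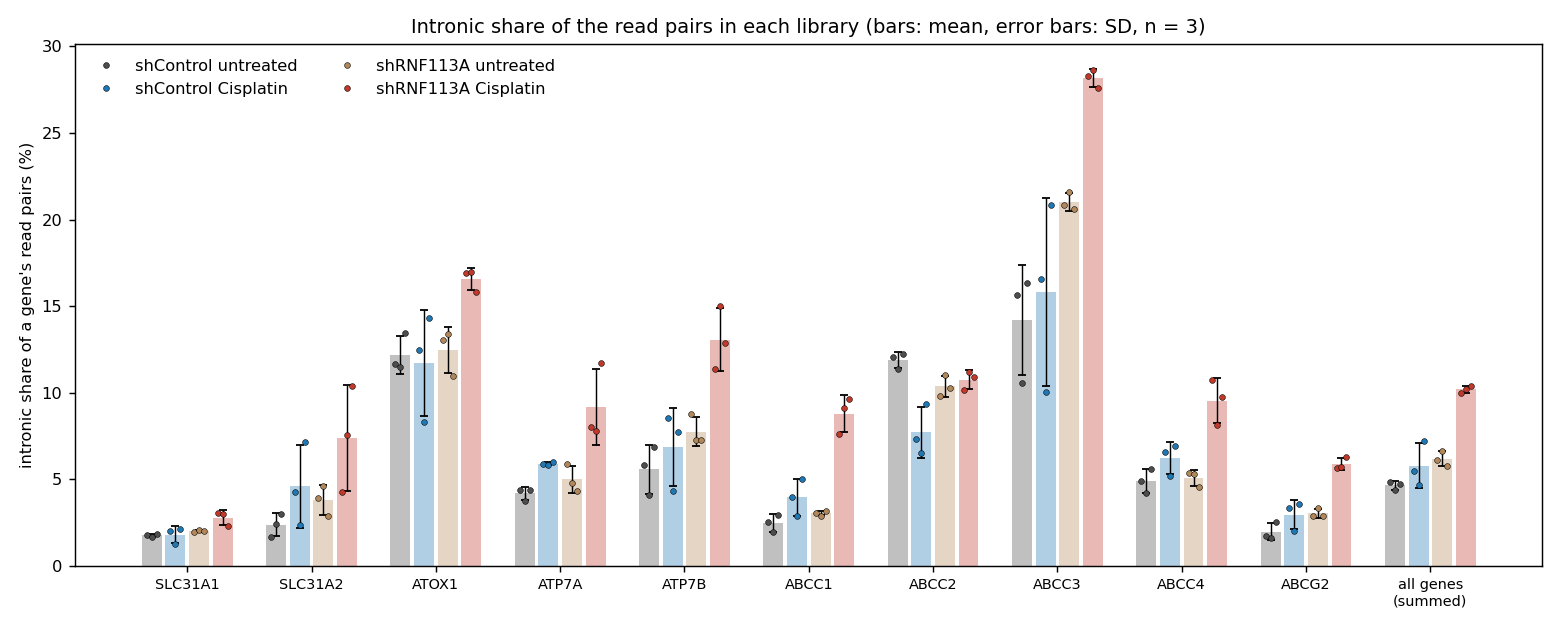
Intronic reads as a percentage of genic reads for each of the 10 genes and for all genes summed in the 12 libraries, by group, with points for libraries, bars for the group mean and error bars for the SD (n = 3). ABCC3 climbs from a mean of 14.2% in shControl untreated to 28.2% in shRNF113A Cisplatin libraries, and ABCC2 is highest in shControl untreated cells at 11.9%.

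The ratio of intronic to exonic reads was tested with edgeR over 11488 genes. Cisplatin raised it in 6 of the 10, against 57.1% of all genes raised: ABCC1 (log2 1.15, adjusted p = 2.31e-05), SLC31A2 (0.94, 0.0188), ABCG2 (0.81, 0.000746), ATP7A (0.70, 0.00137), ABCC4 (0.65, 0.00196) and ATP7B (0.59, 0.0220). The call of ATP7B was lost without replicate 2 of shControl untreated, shRNF113A untreated or shRNF113A Cisplatin cells (adjusted p of 0.0571 to 0.0751), and that of SLC31A2 without shRNF113A Cisplatin replicate 3 (0.0583). ABCC2 had a log2 change of -0.32 (adjusted p = 0.0696). Depletion raised the ratio in 7, against 79.6% of all genes, led by ABCC3 (0.91, adjusted p = 0.000174), ABCG2 (0.84), ATP7B (0.80) and ABCC1 (0.78). The other 3 lost their calls without single libraries, ATP7A without shRNF113A Cisplatin replicate 3 (adjusted p = 0.0697), SLC31A1 without shControl Cisplatin replicate 2 or shRNF113A Cisplatin replicate 1 or 2 (0.0687 to 0.0911), and SLC31A2 without replicate 1 or 2 of either shControl group, shRNF113A untreated replicate 2 or shRNF113A Cisplatin replicate 2 or 3 (0.0503 to 0.157). The median over the 10 genes was 0.62 for Cisplatin and 0.59 for depletion, beside 0.52 and 0.73 over all genes. Against the shift common to all genes, with intronic and exonic reads each given their own scaling, ABCC2 was lower by 0.87 on the log2 scale under Cisplatin (adjusted p = 2.81e-09) and by 0.55 under depletion (adjusted p = 2.52e-05). With this scaling 3 of the 10 genes were called in each of these comparisons, and the share of all genes called was not computed.

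In untreated cells depletion raised the ratio in ABCC3 alone (log2 0.71, adjusted p = 0.0295), 1 of 10 against 28.2% of all genes, a call that was lost without shControl untreated replicate 2 (adjusted p = 0.168) and without each of the shRNF113A untreated libraries (0.0568 to 0.108). In Cisplatin-treated cells it did so in 9, against 81.5% of all genes, with log2 changes of 1.24 for ABCC1, 1.11 for ABCC3, 1.05 for ATP7B and 1.03 for ABCG2. SLC31A2 was the exception (0.72, adjusted p = 0.0695). Of the 9, ATOX1 lost its call without shControl Cisplatin replicate 2 (adjusted p = 0.0564), ATP7A without shRNF113A Cisplatin replicate 3 (0.0979), and SLC31A1 without any 1 of shControl Cisplatin replicate 2 and shRNF113A Cisplatin replicates 1 and 2 (0.0556 to 0.0858). No interaction was called by edgeR, where 3.53% of all genes had one and 3 of the 10 had an unadjusted p under 0.05. The nearest were ABCC2 (0.76, adjusted p = 0.0609) and ABCC1 (0.93, adjusted p = 0.0646). Without shControl Cisplatin replicate 3, which had the highest intronic shares of its group, 5 of the 10 interactions were called. The share of all genes called in that fit was not computed.

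Splicing events were tested from the inclusion and skipping reads of each library, with an event called at an adjusted p under 0.05 and mean inclusion levels at least 20 points apart. The 10 genes had 219 events tested for Cisplatin in shControl cells, 188 for Cisplatin in shRNF113A cells, 235 for depletion in untreated cells and 153 for depletion in Cisplatin-treated cells. Only the last held a call, the retained intron of ABCC3 printed at the start, where 2.37% of all retained introns were called by this test. With its own splicing test the study reported a much larger share of retained introns raised by depletion in treated cells. What made the shares differ was not tested. An unadjusted p under 0.05 was reached by 12, 16, 8 and 16 of the events of these genes, in the order given. The share of all events that reached it was not computed. In the comparisons without a call, the called share of all retained introns was 0.0870, 1.12 and 0.990%.

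Inclusion of the ABCC3 intron was 20.3, 17.5 and 23.1% in shControl untreated libraries, in the order of the deposited tables, which is not tied to the replicate numbers. It was 21.7, 13.1 and 31.9% in shControl Cisplatin libraries and 30.1, 29.5 and 30.7% in shRNF113A untreated ones. In shRNF113A Cisplatin libraries it reached 42.0, 42.7 and 47.1%, above every other library. There 131, 151 and 131 reads came from the retained form and 59, 66 and 48 from the spliced one. Depletion raised inclusion by 21.7 points in treated cells (adjusted p = 0.00307) and by 9.78 points in untreated cells (adjusted p = 0.0182). Cisplatin raised it by 13.8 points in shRNF113A cells (adjusted p = 0.00814) and differed by 1.94 points in shControl cells (adjusted p = 0.962). Of all retained introns, 26.0% passed an adjusted p under 0.05 alone for depletion in treated cells and 17.4% in untreated cells. For Cisplatin in shRNF113A cells 15.7% passed it. Leaving out single libraries moved the change of 21.7 points to between 17.1 and 26.5, and without the second shControl Cisplatin library of the table it was 17.1, under the limit of 20 points.

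The 2 ends of the other ABCC3 intron moved in the same comparison. The inclusion level of the earlier acceptor averaged 5.13% in shControl untreated, 5.66% in shControl Cisplatin, 8.72% in shRNF113A untreated and 16.0% in shRNF113A Cisplatin cells. The last 2 groups of treated libraries, 6.16, 3.57 and 7.26% against 18.3, 11.6 and 18.1%, did not overlap and differed by 10.4 points (adjusted p = 0.000888). The inclusion level of the later donor averaged 2.77, 1.86, 3.92 and 7.67% in the same order, and depletion raised it by 5.81 points in treated cells (adjusted p = 0.00419). Among all events of these categories 2.68% and 3.54% passed an adjusted p under 0.05 in this comparison, of which 0.236% and 0.344% also passed the limit of 20 points. Both events were counted against the same reads of the usual splice, so they are not independent. Their inclusion reads took in reads inside the added stretch besides those across junctions. Retention of this intron therefore cannot be told apart from use of these sites.

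**Figure D5:**
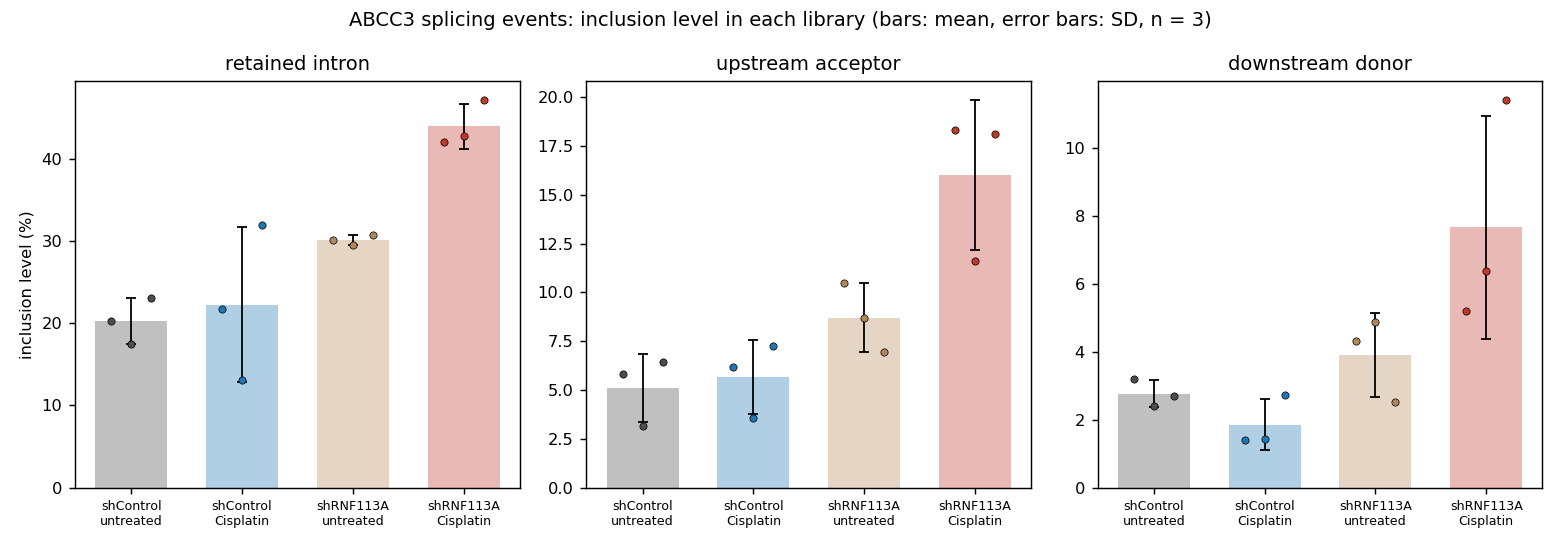
Inclusion level in percent of the ABCC3 retained intron, the earlier acceptor and the later donor in the 12 libraries, by group, with points for libraries, bars for the group mean and error bars for the SD (n = 3). All 3 are highest in the shRNF113A Cisplatin group, with means of 43.9, 16.0 and 7.67%.

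Smaller shifts were seen elsewhere. In ABCC2 a pair of exons treated as mutually exclusive, at hg19 chr10:101577065-101578714, had the first of them included at 50.2% in shControl untreated and 56.4% in shControl Cisplatin cells, a change of 6.15 points (adjusted p = 0.00670). A pair in ABCC3, at hg19 chr17:48733193-48735568, differed by 7.58 points between the treated groups (adjusted p = 0.0226). Of all such exon pairs 1.32% and 2.79% passed an adjusted p under 0.05 in these comparisons. No skipped exon of the 10 genes passed an adjusted p under 0.05. The exon of ABCC4 at hg19 chr13:95918366-95918518 was included 14.9 points less after Cisplatin in shControl cells, and that of ATP7B at hg19 chr13:52532447-52532680 17.3 points more, with adjusted p of 0.565 and 0.712 on few reads.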

How the data were processed

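A549 RNA from 12 libraries (3 biological replicates in each of 4 conditions) was sequenced as stranded mRNA. The authors removed ribosomal, transfer and mitochondrial RNA, trimmed the reads, aligned them to hg19 with STAR 2.5.2b and deposited raw counts of read pairs per gene, of which those of the gene's strand were used. Genic and exonic counts were made by the authors with HTSeq on protein-coding Gencode v19 genes, and intronic reads are genic minus exonic counts. Splicing tables of the authors' rMATS analysis hold raw inclusion and skipping read counts per library. Their columns of p-values, FDR and inclusion differences are the authors' own comparisons and were not used.

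Counts were tested with edgeR 4.0.16 (R 4.3.3, TMM, filterByExpr, quasi-likelihood F test, Benjamini-Hochberg adjustment over 15352 genes), in an additive model of drug and depletion and in one with their interaction, with a term for replicate number, DESeq2 1.42.0, other filters and scalings, unstranded counts and each library left out as alternatives. Calls needed an adjusted p under 0.05. The SE is the log2 fold change divided by the square root of F. Intronic and exonic reads (11488 genes with at least 1 read of each kind in every library), and inclusion and skipping reads (at least 10 reads in every library), were tested as pairs of columns with a term per library. The additive expression tests, the depletion test of the intronic ratio and the retained intron test in treated cells were first run on simulated data. Interactions, effects within single groups of expression or intronic ratio, blocked fits and the other kinds of splicing event were not simulated. Figures were drawn with matplotlib 3.10.9 in Python 3.11.15.

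Same-numbered shControl libraries deviated together from their group means (r = 0.63, 0.73 and 0.47 over 9579 genes), so the blocked values are given for Cisplatin in shControl cells, in a fit of these libraries added after seeing the data. Rows without a gene (14.0 to 22.6% of pairs) were left out. A leukocyte marker of the original list is not reported here. Members and lists were chosen with earlier results of these data known. All 10 members were named. Of each other list the 2 largest rises and falls past the test were named for Cisplatin and for depletion, and for SLC31A1 the 3 genes with the highest correlation to it. Splicing events were named where called, or where among the smallest adjusted p of a member.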

Additional observations from a re-analysis of the deposited data

How the results depend on the processing

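For expression, 70 values of single genes were recomputed under 1280 alternative settings in all, of which 1189 kept direction and side of the limit, 37 lost a call, 38 gained one and 16 turned direction. Of 37 called values 27 kept their call under every alternative run and 0 turned. All 10 calls of the Cisplatin effect over all libraries stood under DESeq2 and in every leave-one-out fit. The counts of called genes that moved by over 1.5 times were those of the interaction (0, and 1 with DESeq2, 0 to 1 leaving out single libraries), of depletion over all libraries (6, leave-one-out 3 to 6) and of depletion in untreated cells (2, leave-one-out 1 to 3). Of the counts past 2-fold, that for Cisplatin in shControl cells went from 4 to 2 with scaling by library size only, and that for depletion in treated cells from 2 to 1 without shRNF113A Cisplatin replicate 3. Among uncalled values, leaving out single libraries took ABCC3 (-0.085 to 0.088) and ABCG2 (-0.20 to 0.36) across 0 in the interaction, ATOX1 (-0.13 to 0.058) in untreated cells, and SLC31A2 (-0.039 to 0.13) and ABCC2 (-0.086 to 0.10) in treated cells. Scaling by library size only moved the median of all genes under Cisplatin from 0.03 to 0.13. Same-numbered shControl libraries all deviated together, with r of 0.47 to 0.73, though the labels name no pairs. In shRNF113A cells r was 0.40, -0.083 and 0.29, and 4 of 6 libraries correlated best with their own number, as did 4 of 6 in shControl cells. With the replicate number as a block in all libraries, depletion over all libraries still had 6 called genes, ATP7B in (adjusted p = 0.0298) and SLC31A1 out (0.0702), and ABCG2 was called in shControl (0.0244) and shRNF113A (0.0477) cells under Cisplatin.

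For the intronic to exonic ratio, 50 values were recomputed 795 times, with 695 unchanged in side and direction, and 1 of 23 called values kept its call throughout. Scaling intronic and exonic reads separately takes out the shift common to all genes. It brought the called genes to 3 for Cisplatin, 3 for depletion, 2 in untreated and 2 in treated cells. It turned the log2 change for Cisplatin in SLC31A1 (-0.30), ATOX1 (-0.35) and ABCC3 (-0.18), for depletion in SLC31A1 (-0.27), SLC31A2 (-0.091), ATOX1 (-0.39), ATP7A (-0.23), ABCC2 (-0.55) and ABCC4 (-0.35), for the interaction in SLC31A1 (-0.011), SLC31A2 (-0.47), ATP7A (-0.086), ABCC3 (-0.095) and ABCG2 (-0.096), in untreated cells in SLC31A1 (-0.26), ATOX1 (-0.43), ATP7A (-0.19), ABCC1 (-0.16) and ABCC4 (-0.40), and in treated cells in SLC31A1 (-0.27), SLC31A2 (-0.21), ATOX1 (-0.35), ATP7A (-0.27), ABCC2 (-0.42) and ABCC4 (-0.29). In untreated cells 2 genes were called with at least 10 reads of each kind, 2 with the replicate block and 0 to 2 leaving out single libraries. The interaction had 1 call with the replicate block (ABCC1, 0.94, adjusted p = 0.0449) and 0 to 5 leaving out single libraries. Leave-one-out fits also took SLC31A2 (-0.37 to 0.52) in the interaction and ATOX1 (-0.028 to 0.14) and ABCC4 (-0.045 to 0.17) in untreated cells across 0.

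For splicing, a limit of 10 points gave 1 called event for Cisplatin in shRNF113A cells and 2 for depletion in treated cells, and leaving out single libraries left 0 to 1 there. These leave-one-out fits were not run for skipped exons. No paired analysis was possible because the libraries of the splicing tables carry no replicate numbers. Where a call changed, the cause was not tested.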
